A study of Rattus norvegicus with 36 samples.

Results

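The 239 miRNA loci described here were predicted from the rat genome by the study's software and carry no miRNA name in the deposited count table. They were taken from the 313 rows of the table that are classed as new miRNAs found in the genome (238 rows) or by the faster genome search of the same software (75 rows), each named by chromosome, start and end in build rn4. Rows that shared at least 1 base were merged, which left 239 loci on 21 chromosomes among the 947 rows of the whole table. Of the loci, 165 came from a single row and 74 from a pair of rows.

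Small RNA was read from the lung and the whole blood of female rats of the WAG/RijCmcr strain, which were 9 to 10 weeks old when irradiated. Irradiated rats received 15 Gy in 1 exposure to X-rays over the whole thorax, a field that holds the lungs, the heart and a small part of the liver, and control rats received 0 Gy. Each tissue had 6 groups with 3 libraries each, from control rats sampled after 1 or 4 weeks and from irradiated rats sampled after each of weeks 1 to 4. The study's methods state that each library pooled RNA of 3 rats, whereas the description given to the archive has 3 rats per group, and neither says whether blood and lung came from the same rats, so p-values measure the spread between these libraries.

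A miRNA is cut from the arm of a short RNA hairpin, and the mature strand of about the length of a small RNA read guides a silencing complex to messenger RNAs through its seed, bases 2 to 8. Prediction software places small RNA reads on the genome and keeps the places whose surrounding sequence can fold into such a hairpin. A predicted locus can therefore be the gene of a miRNA that already has a name, the gene of one that does not, or another place from which small RNAs were read. In blood, miR-486-5p of red cells takes up most small RNA reads, and in lung the smooth muscle miRNA miR-143-3p is among the most abundant.

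Total counts ran from 1156407 to 2340177 per blood library and from 8132 to 3807051 per lung library. Of the lung libraries, 0 Gy 1 week replicate 3 (11621 counts) and 15 Gy 3 week replicate 3 (8132 counts) had very low depth, and the other 16 are called the ordinary lung libraries. In blood, the study's supplementary count table lists 0 Gy 1 week replicate 1 and 15 Gy 1 week replicate 2 under each other's number. The deposited labels were followed, and results that rest on these libraries are also given with them exchanged.

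Of the 52 loci whose counts went together with those of a named rat miRNA, as described further on, the mature miRNAs of several are shown because they share a seed, belong to neighbouring loci or have values by dose or week given for their locus. Sequences are from RefSeq (GRCr8), 5′ to 3′, with the seed in capitals. The sequences of the loci themselves were not read, since a genome of build rn4 was not used here.

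miR-27a-3p: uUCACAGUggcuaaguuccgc
miR-27b-3p: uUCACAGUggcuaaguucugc
miR-17-5p: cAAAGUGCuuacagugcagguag
miR-20a-5p: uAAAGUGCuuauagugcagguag
miR-92a-3p: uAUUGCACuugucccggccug
miR-92b-3p: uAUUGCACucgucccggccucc
miR-181c-5p: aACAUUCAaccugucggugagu
miR-181d-5p: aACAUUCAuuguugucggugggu
miR-221-3p: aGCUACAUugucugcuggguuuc
miR-222-3p: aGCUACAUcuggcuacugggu
miR-99b-5p: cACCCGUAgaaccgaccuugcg
miR-125a-5p: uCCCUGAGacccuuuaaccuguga
miR-127-3p: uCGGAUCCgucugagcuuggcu
miR-375-3p: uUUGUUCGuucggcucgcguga

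The predicted regions of the slower search were mostly longer than miRNA hairpins, and those of the faster search were of about hairpin length. Rows of the slower search spanned 67 to 294 bases with a median of 135, rows of the faster search 78 to 105 bases with a median of 85, and the 419 rat hairpins in RefSeq 59 to 141 bases with a median of 88. In 72 of the 74 pairs of rows the shorter region lay inside the longer one. The counts of the pair were equal in 698 of 1818 values with a count (38.4%), and the faster search was at 0 while the slower was not in 1004 (55.2%). Each locus was counted once, by the row with more counts in all.

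At least 1 count was found for 209 loci, and 30 loci were at 0 in all 36 libraries, which together held 56746776 counts. Blood held 153 of the loci and lung 203, of which 147 were in both tissues, 56 in lung only and 6 in blood only. A set of 43 loci was counted in all 18 blood libraries and 65 loci in all 16 ordinary lung libraries. At the other end, 42 loci stayed under 10 counts in every library.

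**Figure D1:**
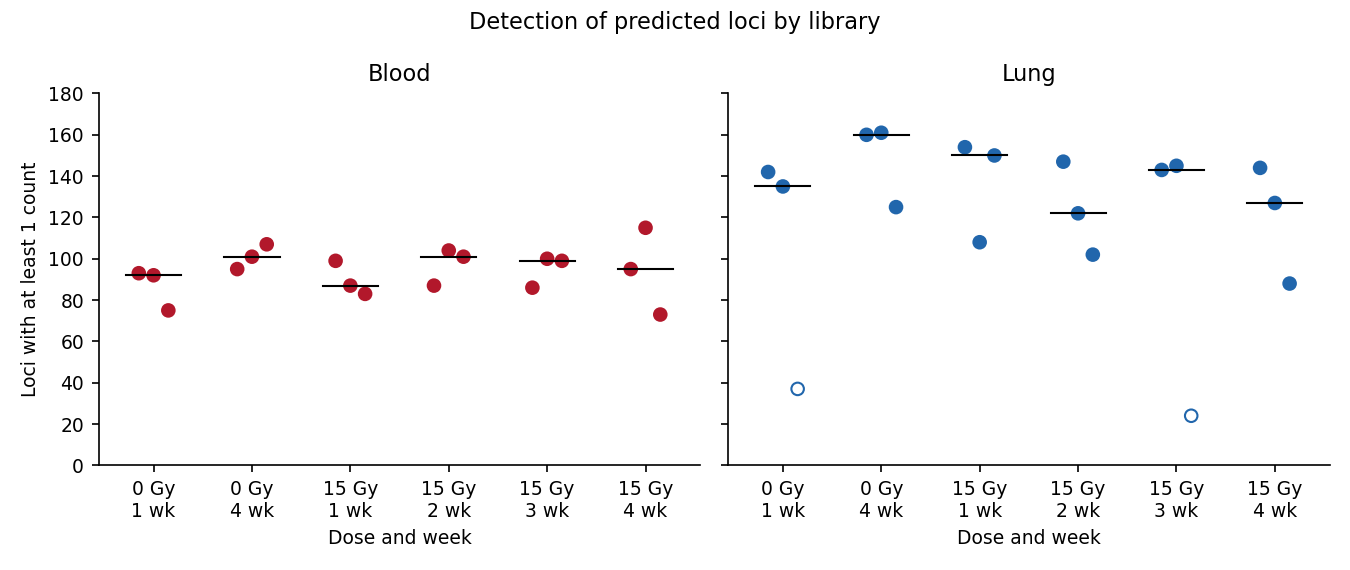
Number of predicted loci with at least 1 count in each library, by tissue, dose and week, with a line at the median of each group and open symbols for the lung libraries of very low depth. Blood libraries held 73 to 115 loci and ordinary lung libraries 88 to 161, and within each tissue the 0 Gy and 15 Gy libraries overlapped.

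The number of loci in a library differed between tissues in the deposited counts and much less at equal depth. Blood libraries held a median of 95 loci and ordinary lung libraries a median of 142.5. After thinning each library to 70470 counts outside miR-486-5p, the expected number was 69.4 to 96.4 in blood (median 83.5) and 74.7 to 97.3 in ordinary lung libraries (median 90.1). Across groups the unthinned medians were 92 and 101 in blood at 0 Gy and 87, 101, 99 and 95 at 15 Gy from 1 to 4 weeks. In lung they were 135 and 160 at 0 Gy and 150, 122, 143 and 127 at 15 Gy.

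The loci took a larger share of the counts in lung than in blood. They held 18.7% to 25.9% of all counts in ordinary lung libraries and 0.399% to 1.60% in blood, where they held 6.52% to 11.4% of the counts outside miR-486-5p. These shares take 1 row per locus, while the total counts also hold the other row of a pair. All 313 predicted rows together held 35.1% to 49.3% in ordinary lung libraries and 0.450% to 1.91% in blood. A single locus, chr18:57625094-57625241, whose counts went with miR-143-3p, held 55.7% of all locus counts in lung, and the first 10 loci held 91.1%. In blood the first locus held 20.4% of the locus counts and the first 10 held 72.7%.

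Many predicted loci carried nearly the same count, library by library, as 1 known rat miRNA. For each locus with a median of at least 50 counts in a tissue, the known miRNA was sought whose log2 ratio to the locus varied least over the libraries, and a locus was said to follow that miRNA where the SD of the ratio was at most 0.20. In lung 37 of 57 loci followed a known miRNA (64.9%), whereas 29 of 133 known rat miRNAs followed another known one by the same rule (21.8%). In blood 11 of 29 loci did so (37.9%), against 9 of 68 known miRNAs (13.2%). The 6 loci that followed a miRNA in both tissues followed the same one in each, and 42 loci followed 41 miRNAs in all.

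**Figure D2:**
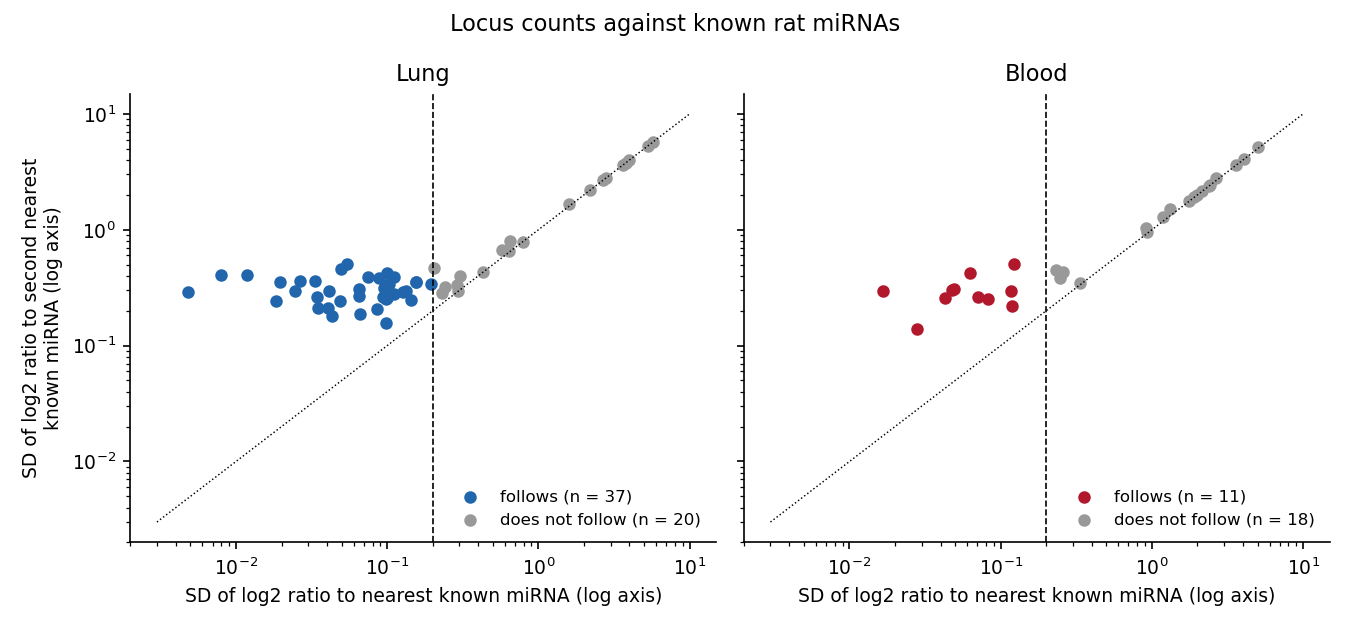
Each point is a predicted locus with a median of at least 50 counts, in lung or in blood, with the SD of its log2 ratio to the nearest known rat miRNA on the x axis and to the second nearest on the y axis, both log axes. The points left of the dashed line at 0.2 are the 37 loci in lung and 11 in blood that follow a miRNA. Their second nearest lies at a median SD of 0.297 in lung and 0.295 in blood. For a few it also lies within 0.2, such as the miR-181d-5p locus in lung at 0.158 and the miR-140-3p locus in blood at 0.140.

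The match was close in level as well. The median SD of the ratio was 0.0663 in lung among loci that followed a miRNA and 0.0625 in blood. The ratio of the locus count to the miRNA count lay between 0.8 and 1.25 for 28 of 37 loci in lung and 9 of 11 in blood. The tightest was the miR-143-3p locus, at a ratio of 1.19 with an SD of 0.00481. The miR-125a-5p locus at chr1:56487554-56487694 had a ratio of 1.09 with an SD of 0.00795, and the miR-99b-5p locus next to it at chr1:56486961-56487048 a ratio of 1.12 with an SD of 0.0119. The loci of miR-27b-3p, miR-146b-5p, miR-150-5p and miR-21-5p had ratios of 1.097, 1.096, 1.06 and 0.987 in lung.

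A few loci followed a miRNA at a far lower count. The locus at chr3:57340837-57340983 held 0.0169 of the count of miR-10a-5p in lung. The miR-92a-3p locus at chrX:139740786-139740910 held 0.102 of the miRNA's count in blood, and RefSeq lists miR-92a-3p under a pair of genes, Mir92a1 and Mir92a2. Both genes give the same mature sequence, so a read of it cannot be assigned to one of them.

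The threshold on the SD cut through few loci. Just inside it in lung was chrX:83869059-83869162, which followed miR-223-3p with an SD of 0.194. Just outside were chr11:16397521-16397653, nearest to miR-99a-5p with an SD of 0.205 at a ratio of 0.146, and chr17:7351671-7351799, nearest to miR-23b-3p with an SD of 0.242 at a ratio of 1.02. Between these lay chrX:139740786-139740910, nearest in lung to miR-30d-5p with an SD of 0.232 at a ratio of 0.0458. It followed miR-92a-3p in blood only.

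The study's methods state that reads matching miRBase were set aside before loci were predicted from the remaining reads. In the deposited table, 52 loci followed a miRNA in either tissue, 10 of them only by a second rule given below. Together they held 98.1% of all locus counts in lung and 75.8% in blood, also where a locus did not follow its miRNA in the tissue summed. Most loci that followed by the first rule had a count close to that of the named row, but the miR-92a-3p locus in blood held 0.102 of it. Whether the same reads were counted in the row of a locus and in that of its miRNA was not tested.

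Some loci went with a miRNA only in the libraries where they were counted at all. With the ratio taken over libraries with at least 10 counts of the locus, and at least 8 such libraries, 10 more loci followed a miRNA, which made 52. A locus is named here after the miRNA it followed in either tissue, and it need not follow that miRNA in the other. A further 13 loci had enough counts and did not follow one, 144 had too few counts to judge, and 30 had none.

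The places of the loci could be set beside those of the miRNA genes. For 50 of the 52 loci (96.2%) the followed miRNA had a RefSeq gene on the chromosome of the locus, and for 6.67% of all pairs of such a locus with a known rat miRNA this was so. The exceptions were the miR-10a-5p locus on chromosome 3, where RefSeq places Mir10b and not Mir10a, and the miR-204-5p locus chr5:154377761-154377855. Distances were compared for the 10 pairs of neighbours within a cluster that both followed a miRNA, passing over any locus between them. In all 10, the distance between the locus centres in rn4 lay within 100 bases of that between the hairpins in RefSeq. Where a miRNA had several genes, the closest combination was taken. The miR-17-5p and miR-20a-5p loci on chromosome 15, which belong to one polycistron, were 455.5 bases apart in both. The miR-222-3p and miR-221-3p loci on chromosome X were 565 bases apart against 564, and the miR-99b-5p and miR-125a-5p loci 619 against 618.5.

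Predicted loci also stood in groups along the chromosomes. With neighbours joined at gaps of up to 10000 bases, 71 loci fell into 27 clusters, of which 20 were pairs and 7 had 3 or more loci. Chromosome 1 held 29 loci, X 28, 6 25 and 17 16. Of the loci that followed a miRNA, 27 of 52 were in clusters (51.9%), and of the others 44 of 187 (23.5%). The largest cluster had 10 loci at chr6:134389310-134424751, with 1514 counts in all lung libraries together and 1 in blood. Of these only chr6:134389310-134389457 had enough counts to be judged, and it did not follow a miRNA. The miR-127-3p locus, chr6:134184293-134184425, lay before it on the same chromosome.

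Several loci could not be told apart by their counts. The loci chr17:79271594-79271735 and chr17:79284743-79284877 had identical counts in all 36 libraries, 109 in sum. The lung counts of chr13:101253957-101254085 and chr18:47881314-47881448 were identical too, and both followed miR-664-3p. The sum of such loci may hold the same reads more than once, which was not tested.

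A second feature of the loci was that many were counted in full in some libraries and at 0 in others. Among loci with at least 100 counts in some ordinary library of a tissue, 17 of 37 in blood (45.9%) and 20 of 75 in lung (26.7%) were at 0 in another, whereas none of 77 known rat miRNAs in blood and none of 157 in lung were. Of these, 12 loci in blood and 7 in lung had a miRNA that they followed in either tissue. That miRNA had at least 1 count in every library where the locus was at 0. It was itself near 0 in some of them, with as few as 4 counts of miR-30b-5p in blood and 1 of miR-204-5p in lung. The lowest value of the locus above 0 was at least 10 counts for all 17 loci in blood and for 13 of 20 in lung. At 0 Gy 37.3% of the values of such loci in blood were 0 and at 15 Gy 39.7%, and in lung 26% and 37.3%.

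**Figure D3:**
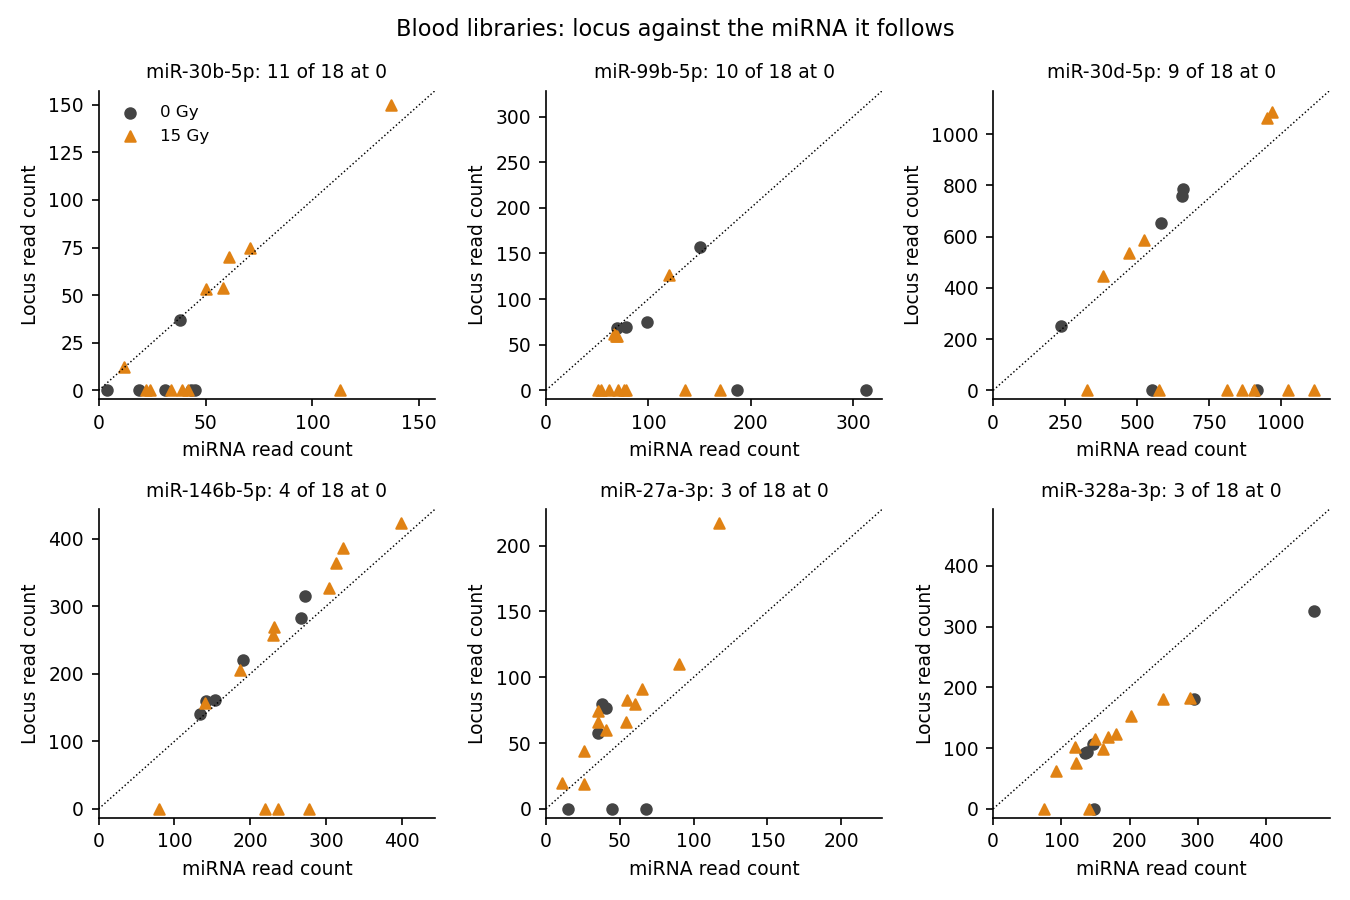
Count of a predicted locus (y axis) against the count of the miRNA it follows (x axis) in the 18 blood libraries, for the 6 loci with most libraries at 0, with circles for 0 Gy, triangles for 15 Gy and a dotted line where both are equal. The pairing comes from blood or from lung. For miR-30d-5p and miR-99b-5p the libraries lie either near the line or at 0 on the y axis, with 9 and 10 of 18 at 0. Counted libraries of the miR-27a-3p locus lie mostly above the line, at a median of 74 counts against 41 of the miRNA. Those of the miR-328a-3p locus lie mostly below it, at a median ratio of 0.688.

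The miR-30d-5p locus, chr7:105819723-105819875, shows the pattern at high counts. In blood it held 252 to 1086 counts in 9 libraries and 0 in the other 9, in which miR-30d-5p itself held 325 to 1114. In lung, where the locus did not follow miR-30d-5p, it was at 0 in 4 of 16 ordinary libraries, in which the miRNA held 4306 to 19306 counts. The miR-99b-5p locus was at 0 in 10 blood libraries, with 51 to 313 counts of the miRNA there, and held 60 to 157 counts in the other 8. Values of 0 stood in both 0 Gy and 15 Gy libraries in each of these cases. For other loci the libraries at 0 were those with fewest counts of the miRNA. The miR-181c-5p locus in lung was at 0 in 5 libraries with 46 to 198 counts of the miRNA and was counted in those with 236 to 1009. In blood the miR-17-5p locus on chromosome 15 was at 0 in the library with 40 counts of its miRNA, against 146 to 659 elsewhere, and the miR-30a-5p locus in the one with 335, against 930 to 3882.

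The same was seen for loci without a followed miRNA. The locus chr5:137468994-137469092 held 1911 counts in 1 blood library, 0 Gy 4 week replicate 3, and 0 in the other 17, and in lung it held 504 to 3945 counts in 8 libraries and 0 in the rest. The locus chr19:33540905-33541045 held 1543 to 3156 counts in 4 of 16 ordinary lung libraries and was at 0 in the others. The locus chr1:219153600-219153686 held 157 to 289 counts in 10 blood libraries and 0 in 8, and was at 0 in all 18 lung libraries.

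The most abundant loci at 0 Gy differed between the tissues. CPM are counts per library size, which was corrected by TMM within the tissue. In blood the highest was chr18:8923954-8924050 with 1701 ± 415 CPM (SD, n = 6), which followed no known miRNA and held 1755 to 4270 counts in each of the 18 blood libraries. Next were the miR-27b-3p locus with 1497 ± 512, the miR-92a-3p locus with 1469 ± 391 and the miR-140-3p locus with 546 ± 104. Also among the first 10 was chr10:76049262-76049384, which followed no miRNA and ranged from 11 to 1943 counts over the blood libraries. In lung all of the first 10 followed a miRNA there except the miR-30d-5p locus, which followed it in blood only. The highest were the miR-143-3p locus at 155687 ± 150982 CPM, the miR-99b-5p locus at 16633 ± 10265 and the miR-125a-5p locus at 11292 ± 3240.

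Lung and blood differed in the level of most loci that could be tested. In the 0 Gy libraries, 6 against 6, 89 of 130 loci passed an adjusted p of 0.05 (edgeR quasi-likelihood test, Benjamini-Hochberg over all rows), 56 higher in lung and 33 higher in blood. Of all 576 rows tested 75% passed, 49.7% higher in lung and 25.3% higher in blood. The median log2 difference, lung minus blood, was 1.44 over the loci and 1.85 over all rows. The split depends on the scaling, and miR-486-5p took most blood counts. It was 84 higher in lung and 14 in blood under library totals, 44 and 41 under RLE size factors, 39 and 41 with DESeq2, 42 and 39 with miR-486-5p left out and 47 and 32 with the replicate number as a block. With 1 control library left out it was 34 to 38 in lung and 48 to 51 in blood, and only without lung 0 Gy 1 week replicate 2 did it stay at 56 and 34. The median over all rows moved with these choices, to 4.34 under library totals, 1.21 under RLE, 0.39 without miR-486-5p and 0.34 to 1.60 with 1 control library left out. The differences that follow are to be read beside the median of 1.85. Folds given as at least a value were taken under the main scaling and move with it. The 20 loci with the largest differences kept their direction under each alternative run. By kind, 26 of the 42 loci that followed a miRNA were higher in lung and 10 in blood. Of the 65 loci with too few counts to judge, 19 were higher in lung and 19 in blood.

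Loci of epithelial and ciliated cell miRNAs were counted in lung and not in blood at 0 Gy. The miR-429 locus, chr5:172897165-172897291, held 0 to 7995 counts in the lung control libraries (median 1584.5) and 0 in all 6 of blood, which puts it at least 1001-fold higher in lung, against a floor of 3 counts over the blood group. The miR-200b-3p locus close to it, chr5:172898998-172899090, held a median of 1400.5 counts in lung and 0 in blood and was at least 662-fold higher. miR-200b and miR-429 are of the family that keeps epithelial cells from a mesenchymal state. The miR-34c-5p locus, chr8:54422016-54422156, of a miRNA known from ciliated cells, ran from 11 to 3348 in lung (median 1011.5), was at 0 in blood and was at least 526-fold higher. The named miRNAs themselves were higher in lung by log2 8.31 for miR-429, 7.45 for miR-200b-3p and 7.61 for miR-34c-5p.

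The miR-127-3p locus held 10 to 1921 counts in lung and 0 in blood and was at least 382-fold higher. miR-127 lies in an imprinted region and is expressed from the maternal chromosome. The miR-375-3p locus, chr9:74233487-74233589, of a miRNA of secretory and neuroendocrine epithelium, held 56 to 14200 counts in lung and 0 to 8 in blood, a log2 difference of 8.47 (SE 0.64, adjusted p = 9.82e-12 by edgeR). The first locus of the chromosome 6 cluster, chr6:134389310-134389457, held 1 to 184 counts in lung and 0 in blood and was at least 33.9-fold higher, as was chr4:160840876-160841078, at least 75.1-fold, which followed no known miRNA either. The locus chr1:22266733-22266824, at least 260-fold higher, was at 0 in 2 lung libraries and lost its call in 10 of 12 fits with 1 control library left out.

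The miR-27a-3p locus, chr19:25638547-25638840, had a fitted difference that rests in part on libraries at 0. It held 27 to 8474 counts in lung and 0 to 80 in blood at 0 Gy, with a log2 difference of 8.32 (SE 0.76, adjusted p = 6.84e-10 by edgeR) against 3.45 for miR-27a-3p. The 3 blood control libraries of 1 week were at 0, so the fitted value and its SE depend on the small count that the fit adds. In CPM over both tissues the locus had a mean of 757 ± 203 in lung and 40.8 ± 44.8 in blood (SD, n = 6). With the blood libraries in doubt exchanged, the difference was 4.72. It is the longest of all predicted regions, with 294 bases, and its count was 1.45 times that of the miRNA in lung.

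**Figure D4:**
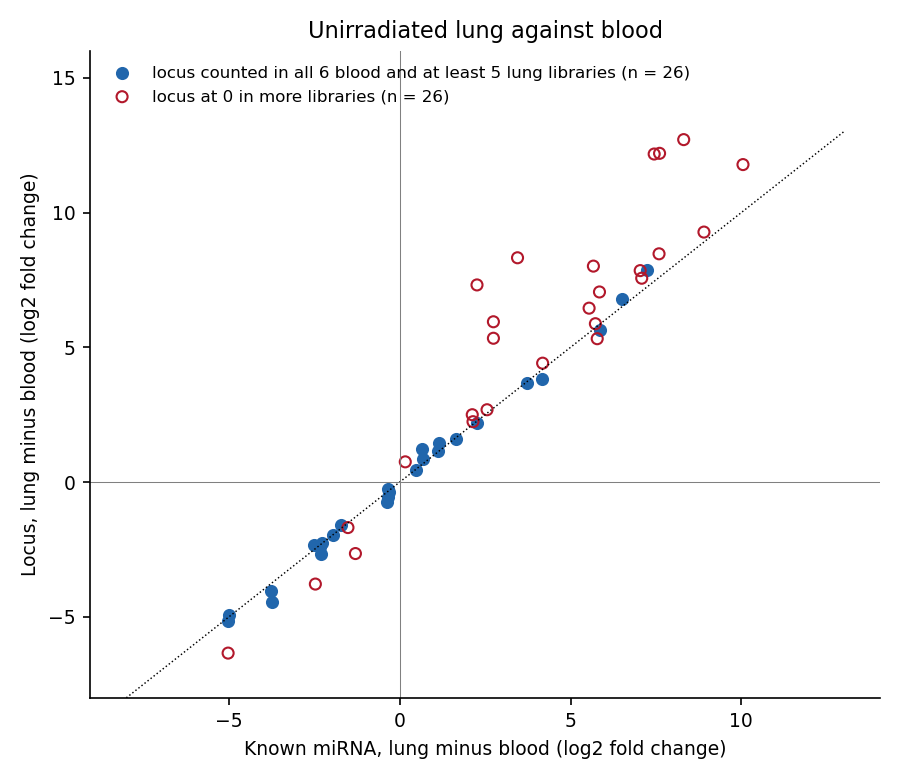
Log2 difference between lung and blood at 0 Gy of each predicted locus (y axis) against that of the miRNA it follows (x axis). The 26 filled points, counted in all 6 blood and at least 5 lung control libraries, lie close to the diagonal with a median distance of 0.154 and at most 0.717, and the 26 open points reach 5.05.

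Across the 52 loci with a followed miRNA, the distance between the 2 log2 differences depended on whether the locus was counted throughout. It had a median of 0.154 over the 26 loci counted in all 6 blood and at least 5 lung control libraries and of 1.06 over the other 26. Both rows of a pair were measured in the same libraries, so these values are a description. Where a group was at 0 they depend on the small count that the fit adds.

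Of the 10 loci highest in blood relative to lung, 9 had no followed miRNA. Only chr18:8923954-8924050 and chr1:219153600-219153686 of these had enough counts to be judged. Among all loci tested between the tissues, 65 had too few counts to judge and 13 followed none, beside 42 and 10 that followed a miRNA by the first and second rule. The locus chr18:8923954-8924050 held 1800 to 3992 counts in the blood control libraries and 0 to 174 in lung, with a log2 difference of -8.98 (SE 1.43, adjusted p = 3.22e-06 by edgeR). The locus chr1:219153600-219153686 had a median of 224.5 counts in blood with 2 of 6 libraries at 0, was at 0 in lung, and was at least 1606-fold higher in blood. The locus chr3:4200037-4200189 held 12 to 75 counts in each blood control library and 0 in lung, at least 332-fold higher in blood. The miR-17-5p locus on chromosome 15, chr15:99853725-99853834, of the miR-17-92 cluster of proliferating blood cells, had a median of 286.5 counts in blood and 5.5 in lung, a log2 difference of -6.34 (SE 1.13) against -5.02 for miR-17-5p. Of the other 6 among the 10 largest, chr7:11101780-11101894, chr1:136294705-136294837 and chr6:71434790-71434930 were at 0 in lung and held at most 13 counts in any blood control library. The locus chrX:139999110-139999220 was at 0 in 4 of 6 blood control libraries. Its call was lost in 2 of 12 fits with a library left out and in 3 of 10 other alternatives.

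The comparisons by dose asked which loci changed after 15 Gy. The 0 Gy libraries of week 1 served as controls for irradiated rats of weeks 1 and 2, and those of week 4 for weeks 3 and 4, so pairs of comparisons share controls. In blood 72 loci were tested among 289 rows. At 1 week 1 locus rose and none fell (0.346% of all rows passed), and at 2 weeks 1 locus rose and none fell (0.346%). At 3 and 4 weeks no locus passed (0% of rows at each). Between the 0 Gy groups 1 locus was higher in the later one (0.346%). At an unadjusted p under 0.05, the loci higher and lower were 3 and 2 at 1 week, 2 and 4 at 2 weeks, 3 and 6 at 3 weeks and 4 and 3 at 4 weeks by edgeR, with 18, 34, 43 and 22 of all 289 rows. DESeq2 called 2, 2, 1 and 1 loci at the 4 weeks, among 6, 3, 4 and 4 of all rows.

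The call at 1 week, at 2 weeks and between the 0 Gy groups was the miR-27a-3p locus each time, and its miRNA did not move with it. The locus followed miR-27a-3p in lung, with an SD of 0.0986. In blood it followed no known miRNA, and its nearest was miR-451-5p with an SD of 2.37. At 0 Gy the locus held 0, 0 and 0 counts at 1 week and 58, 80 and 77 at 4 weeks. At 15 Gy it held 74, 19 and 44 counts at 1 week, 80, 91 and 83 at 2 weeks, 66, 110 and 60 at 3 weeks and 66, 217 and 20 at 4 weeks. The 0 Gy 1 week libraries were all at 0, and the libraries of the other 5 groups lay between 19 and 217.

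In CPM the means were 35.8 ± 3.7 (SD, n = 3) at 0 Gy 4 weeks and 30.8 ± 14.9, 33.1 ± 5.5, 37.8 ± 6.4 and 34.7 ± 15.3 at 15 Gy from 1 to 4 weeks, against 0 at 0 Gy 1 week. Against a floor of 3 counts over the 0 Gy 1 week group, the locus was at least 48.4-fold higher at 15 Gy 1 week, at least 50.6-fold at 15 Gy 2 weeks and at least 55.9-fold at 0 Gy 4 weeks, with adjusted p-values of 1.04e-05, 9.00e-06 and 7.87e-06 by edgeR. Against 0 Gy at 4 weeks, the log2 change was 0.08 (SE 0.41) at 3 weeks and -0.04 (SE 0.41) at 4 weeks.

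The counts of miR-27a-3p in the same libraries were 68, 45 and 15 at 0 Gy 1 week and 35, 38 and 41 at 0 Gy 4 weeks. At 15 Gy they were 35, 26 and 26 at 1 week, 60, 65 and 55 at 2 weeks, 54, 90 and 41 at 3 weeks and 35, 117 and 11 at 4 weeks. miR-27a-3p was thus counted in each library in which the locus was at 0, and its log2 change was -0.34 (SE 0.34, adjusted p = 0.958 by edgeR) at 1 week and -0.11 (SE 0.34, adjusted p = 0.952) at 2 weeks. With the blood libraries in doubt exchanged, the log2 changes of the locus were 2.47, 2.81 and 2.92 at 1 week, at 2 weeks and between the 0 Gy groups, and none passed (adjusted p = 0.994, 0.27 and 1 by edgeR). With both left out, the call stood at 1 week, at 2 weeks and between the 0 Gy groups. The locus is 1 of the 17 in blood that are counted in full in some libraries and at 0 in others.

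**Figure D5:**
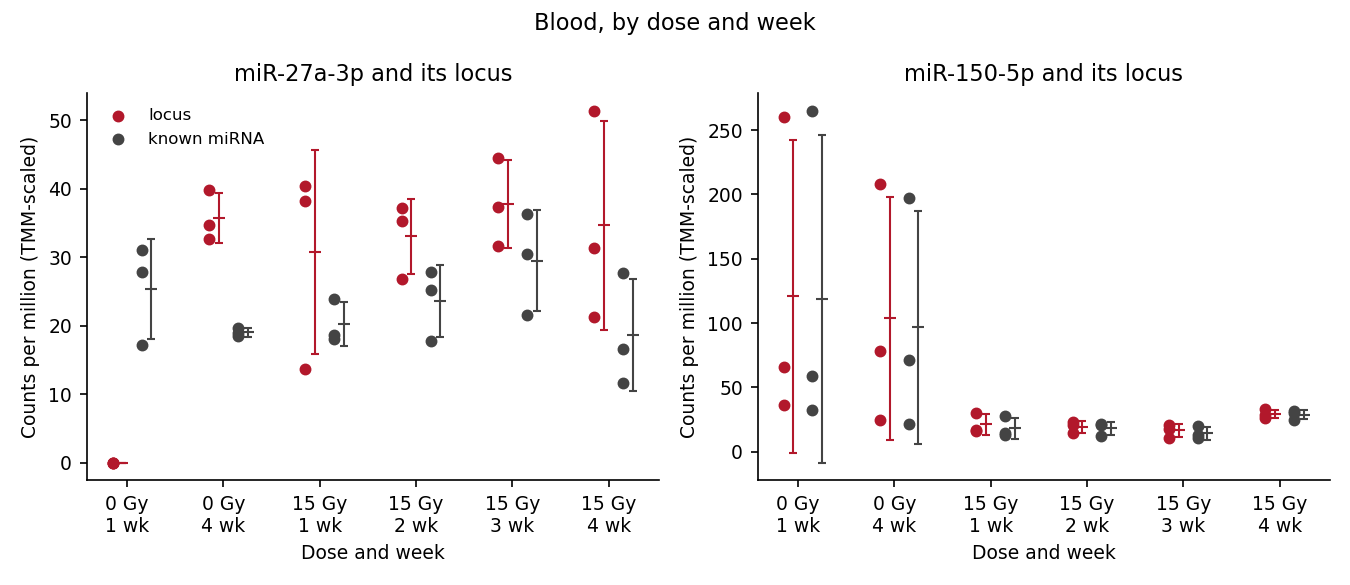
CPM after TMM scaling in the 18 blood libraries of the miR-27a-3p and miR-150-5p loci and of the miRNAs they follow in lung, by dose and week, with points for libraries and bars for the mean and SD of 3 libraries. In blood neither locus passed the rule for following a miRNA. The miR-27a-3p locus is at 0 only in the 0 Gy 1 week group while its miRNA is counted there, and the miR-150-5p locus and its miRNA are lower together at 15 Gy.

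Over all weeks, 12 libraries at 15 Gy against 6 at 0 Gy, 2 loci in blood passed, 1 higher and 1 lower, where 1.04% of all rows passed, 0.346% higher and 0.692% lower. The higher one was again the miR-27a-3p locus, and with the blood libraries in doubt exchanged its log2 change was 1.33 and did not pass (adjusted p = 0.362 by edgeR). The lower one was the miR-150-5p locus, chr1:95595998-95596190. It followed miR-150-5p in lung and no known miRNA in blood, where its nearest was miR-328a-3p with an SD of 0.928. miR-150 is a miRNA of mature lymphocytes.

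At 0 Gy the miR-150-5p locus held 80, 106 and 227 counts at 1 week and 139, 50 and 462 at 4 weeks. At 15 Gy it held 31, 24 and 33 counts at 1 week, 44, 59 and 44 at 2 weeks, 26, 62 and 21 at 3 weeks and 56, 140 and 27 at 4 weeks. Every irradiated library of weeks 1 and 2 was below its 3 controls in counts. With the blood libraries in doubt exchanged, a control of 1 week holds 24 counts, and the groups overlap at both weeks.

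In CPM the locus was at 120.8 ± 121.6 and 103.9 ± 94.4 at 0 Gy and at 21.2 ± 7.9, 19.2 ± 4.5, 16.5 ± 5.1 and 29.5 ± 3.3 at 15 Gy from 1 to 4 weeks. The week 3 libraries, at 11.1 to 21.0 CPM, were below the lowest control of 4 weeks at 24.9, and the week 4 libraries, at 26.6 to 33.1, were not. Its log2 change over all weeks was -2.40 (SE 0.42, adjusted p = 0.00614 by edgeR), and that of miR-150-5p was -2.47 (SE 0.44, adjusted p = 0.00614). The changes at single weeks were -2.51, -2.65, -2.65 and -1.82, and none of them passed (adjusted p = 0.444, 0.218, 0.289 and 0.637 by edgeR). Without 0 Gy 1 week replicate 3 the changes were -1.37 at 1 week and -1.44 at 2 weeks, and without 0 Gy 4 week replicate 3 the change was -1.63 at 3 weeks. With the blood libraries in doubt exchanged, the change over all weeks was -2.27 and passed (adjusted p = 0.0127 by edgeR). Under library totals it was -1.81 and did not pass (adjusted p = 0.115 by edgeR). In bulk blood, fewer cells of a type and less RNA per cell cannot be told apart.

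In a few other loci of blood the p was among the smallest without passing. The miR-125a-5p locus had a log2 change of -1.41 over all weeks (SE 0.33, adjusted p = 0.0584 by edgeR), with 19 to 45 counts at 0 Gy and 4 to 28 at 15 Gy, and miR-125a-5p a change of -0.94 (adjusted p = 0.216). The miR-92a-3p locus had a change of -1.07 at 2 weeks (SE 0.34, adjusted p = 0.218 by edgeR), and miR-92a-3p one of -1.02. Library totals turned the direction of the miR-92a-3p locus, with a log2 change of 0.15. Of the loci with no followed miRNA among the smallest p-values, chr8:127390258-127390406 held 0, 0 and 0 counts at 0 Gy 4 weeks and 5, 13 and 5 at 15 Gy 3 weeks, and did not pass (adjusted p = 0.319 by edgeR).

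In lung no locus passed in any comparison by dose or week, among 110 loci and 499 rows tested, of which 0% passed in each. The loci higher and lower at an unadjusted p under 0.05 were 7 and 2 at 1 week, 6 and 1 at 2 weeks, 2 and 11 at 3 weeks and 2 and 7 at 4 weeks by edgeR, with 52, 26, 39 and 48 of all rows. DESeq2 called 2, 2, 0 and 2 loci at these weeks, among 6, 6, 4 and 10 of all rows, and its calls included chr19:33540905-33541045, chr5:137468994-137469092 and chr2:158992364-158992494, each at 0 in some ordinary lung libraries. The median log2 change over the loci was 0.20, 0.12, -0.22 and -0.31 from 1 to 4 weeks, beside 0.15, 0.10, -0.10 and -0.18 over all rows.

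The miR-127-3p locus had the smallest p in lung. At 0 Gy it held 824, 542 and 10 counts at 1 week and 1921, 1766 and 501 at 4 weeks, and at 15 Gy 976, 278 and 1395 at 1 week, 834, 345 and 125 at 2 weeks, 340, 598 and 2 at 3 weeks and 539, 194 and 30 at 4 weeks. The smallest counts at 0 Gy 1 week and 15 Gy 3 weeks are those of the libraries of very low depth. In CPM the locus was at 483 ± 48 and 641 ± 166 at 0 Gy and at 698 ± 25, 514 ± 78, 318 ± 41 and 202 ± 73 at 15 Gy (SD, n = 3), so that each irradiated library of week 4 was below its 3 controls. The log2 change at 4 weeks was -1.66 (SE 0.32) with an adjusted p of 0.0663 by edgeR and of 0.000682 by DESeq2, and miR-127-3p changed by -1.57 (adjusted p = 0.0759 by edgeR).

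The miR-375-3p locus and a locus beside it on chromosome 9 differed in lung between the 0 Gy groups without passing. The miR-375-3p locus held 3735, 3049 and 56 counts at 0 Gy 1 week and 14200, 10763 and 10699 at 0 Gy 4 weeks, a log2 difference of 1.54 (SE 0.53, adjusted p = 0.568 by edgeR). Its neighbour, chr9:74233254-74233364, which followed no miRNA, held 38, 21 and 0 counts and 204, 106 and 186, a difference of 2.63 (SE 0.83, adjusted p = 0.568 by edgeR). Against 0 Gy at 4 weeks the miR-375-3p locus was at -1.65 at 15 Gy 3 weeks and at -1.41 at 4 weeks, and neither passed (adjusted p = 0.574 and 0.453 by edgeR). The difference of the miR-143-3p locus between the 0 Gy groups was 1.36 (SE 0.55, adjusted p = 0.568 by edgeR). Without 0 Gy 4 week replicate 3 the differences between the 0 Gy groups were 0.15 for the miR-143-3p locus and 0.62 for the miR-375-3p locus, and those of the latter at 15 Gy -0.83 at 3 weeks and -0.51 at 4 weeks.

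The locus chr17:62933432-62933523 was at 0 in the 3 lung libraries of 0 Gy at 1 week and held 71, 13 and 42 counts at 15 Gy 1 week and 60, 26 and 17 at 15 Gy 2 weeks. Set against 3 counts over the controls as a floor, it was at least 33.9-fold higher at 1 week and at least 39.7-fold at 2 weeks, and neither difference passed (adjusted p = 0.299 and 0.703 by edgeR). At 0 Gy 4 weeks it held 35, 51 and 0 counts, and at 15 Gy 3 weeks 34, 0 and 0, the last in the library of very low depth. It had too few counts to be judged against the miRNAs and was at 0 in some control and some irradiated libraries.

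The change of a locus in lung could also be set against its change in blood. At 1 week and at 2 weeks 1 of 130 loci differed between the tissues, lower in lung each time, where 0.174% of all 576 rows passed, and at 3 and 4 weeks none did (0%). It was the miR-27a-3p locus at both weeks, with 4407, 2562 and 27 counts in lung at 0 Gy 1 week, 2126, 1055 and 3392 at 15 Gy 1 week and 3762, 2041 and 770 at 15 Gy 2 weeks, beside the 0 counts of the blood controls. The difference passed at neither week with the blood libraries in doubt exchanged, or with the replicate number as a block.

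Loci with a followed miRNA had nearly the change of that miRNA in most cases. Each pair was chosen for a steady ratio over the libraries of lung or of blood. Small distances in that tissue therefore follow from the rule, and these values are a description. In lung the median distance between the log2 changes of locus and miRNA was 0.055 to 0.141 over the comparisons by dose and week, and 43 to 46 of 52 pairs lay within 0.5. In blood it was 0.054 to 0.153, with 28 to 31 of 36 pairs within 0.5.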

How the data were processed

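Small RNA was sequenced in 36 libraries, 18 of blood and 18 of lung. The deposited table holds the raw read counts, whole numbers, that the authors made for 947 miRNAs and loci, and no count was altered. Per the labels and the methods, adapters and bases of low quality were removed (Trim Galore 0.2.5), reads were mapped to miRBase 19 with Bowtie (1.1.1), reads of messenger, Rfam and repeat RNA were removed, and loci were predicted from the remaining reads on genome build rn4 with miRanalyzer. The authors tested their counts with DESeq, and no result of that test was used.

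Depth was 1156407 to 2340177 counts for blood libraries and 8132 to 3807051 for lung libraries. Floors cover counting error alone, as reads copied by PCR are not separate molecules.

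Predicted rows were merged where they shared at least 1 base, and clusters joined loci at gaps of up to 10000 bases. A locus followed a known miRNA where its median was at least 50 counts and the SD of the log2 ratio, with 0.5 added to counts, was at most 0.20 over ordinary libraries. The 2 lung libraries under 0.1 of the median depth were left out of this rule and kept in the fits. Mature sequences and gene chromosomes were taken from RefSeq (GRCr8) by name. The rn4 genome and annotation were not used here.

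All rows of the table entered each fit, with edgeR 4.0.16 (limma 3.58.1, R 4.3.3), after filterByExpr and TMM scaling, with the quasi-likelihood test, Benjamini-Hochberg adjustment over all rows tested and a threshold of 0.05. Dose and week were fitted within a tissue, over its 18 libraries, and lung against blood over all 36. The SE given with an edgeR value is its absolute log2 change divided by the square root of the F statistic of the test. It was not estimated directly, and where a group was at 0 it depends on the small count that the fit adds. Alternatives were DESeq2 1.42.0, RLE and library total scaling, no filter, miR-486-5p left out, pooled controls, a replicate block, libraries left out, 2 blood libraries exchanged, and, chosen after seeing the data, the rule over libraries with counts and the lung minus blood change by week. The edgeR fit was tested on simulated counts. Replicate numbers were not used to pair libraries in the main fits.

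The loci named are the 10 most abundant of each tissue at 0 Gy, those that passed or the 3 with the smallest p in each comparison by dose or week, the 10 largest differences each way between tissues, those that followed a miRNA and the members of clusters. Not all are given with values, and loci shown for values of 0, for identical counts or for lying at a threshold were chosen after their values were seen. The members, rule and lists were chosen with earlier results of these data known.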

Additional observations from a re-analysis of the deposited data

Results flagged for a closer look

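The miR-27a-3p locus, chr19:25638547-25638840, changed differently in the tissues. Its log2 change from 0 Gy to 15 Gy in lung minus that in blood was -9.96 at 1 week (SE 1.53, adjusted p = 0.000506 by edgeR) and -9.97 at 2 weeks (SE 1.53, adjusted p = 0.000482), by a test of the difference itself that was chosen after seeing the data. All 3 blood control libraries of 1 week were at 0 for the locus. The size of these values and their SE therefore depend on the small count that the fit adds, and they are no fold. With the blood libraries in doubt exchanged, the difference was -2.50 at 1 week (adjusted p = 0.853 by edgeR) and -2.77 at 2 weeks (adjusted p = 0.619). With the replicate number as a block neither passed (adjusted p = 0.0770 and 0.0608 by edgeR). Groups had 3 libraries, so single libraries were not tested for standing apart from their group.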

How the results depend on the processing

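With all 18 lung libraries, 20 loci followed a miRNA, against 42 in ordinary libraries. With the blood libraries in doubt exchanged, the loci called in blood were 0 at 1 week, 0 at 2 weeks and 0 between the 0 Gy groups, against 1 each. With both left out they were 2 at 1 week and 4 over all weeks, against 1 and 2. DESeq2 called 2, 2, 1 and 1 loci in blood from 1 to 4 weeks and 4 over all weeks, and in lung 2 at 1 week, 2 at 2 weeks, 2 at 4 weeks, 2 between the 0 Gy groups and 1 over all weeks, against 0. With the 0 Gy groups pooled, blood had 1 at 3 weeks and 1 at 4 weeks, and under library totals 1 over all weeks. Library totals also turned the miR-92a-3p locus in blood at 2 weeks (chrX:139740786-139740910) from -1.07 to 0.15. With each library left out in turn, blood had 1 to 2 at 1 week and 2 to 4 over all weeks (both higher counts without 15 Gy 1 week replicate 2), and lung against blood 82 to 90. The cause of these changes was not tested. With the replicate block 79 loci differed between lung and blood, against 89, and 0 in the lung minus blood change at 1 week and at 2 weeks, against 1 each. The block moved no other count of loci called by dose or week. Correlations of same-numbered libraries lay between -0.229 and 0.446 for blood (median 0.066) and between -0.195 and 0.365 for lung (median 0.057). For libraries of other numbers they lay between -0.388 and 0.341 (median -0.017) and between -0.436 and 0.271 (median -0.036). Whether the numbers pair the libraries was not tested. Of the loci, 144 had too few counts to be judged against the miRNAs.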

Other observations

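The homology search of the same software named 45 loci, and 26 of the 239 predicted loci overlapped one of them. The lung libraries of very low depth held 24 and 37 predicted loci each, against 88 to 161 in the other lung libraries.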
